A study of Mus musculus with 10 samples.

Results

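The genes described here encode the receptors for serotonin, noradrenaline and adrenaline, dopamine and acetylcholine. They were chosen by a rule on gene names, set with earlier results of these data known. The rule took every protein-coding gene whose mouse symbol begins with Htr and a digit, Adra, Adrb and a digit, Drd, Chrm or Chrn. Of the 48709 genes in the count tables, 49 met it. The set held 14 serotonin, 9 adrenergic, 5 dopamine, 5 muscarinic and 16 nicotinic receptor genes. The RNA came from primary cultures of mouse hippocampal neurons, was selected for polyA tails, and was collected 48 h after lipid nanoparticles were added on day 10 in vitro. Nanoparticles carried scramble RNA in the control group (n = 2 libraries), an inhibitor of microRNA-409-5p in the anti-miR-409-5p group (n = 4) or an inhibitor of microRNA-501-3p in the anti-miR-501-3p group (n = 4). All 3 groups thus carried nanoparticles and RNA, and the comparisons do not include untreated neurons. The labels give no strain, sex or age of the mice and do not say whether libraries within a group are from different cultures, so the p-values speak only of variation among these libraries. The series title places the study in exercise-induced microRNAs and neuronal homeostasis.

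The mature sequences of the inhibited microRNAs are shown because the search for target sites further on uses their seeds. They are credited to RefSeq (GRCm38.p6), are written 5′ to 3′, and have the seed, bases 2 to 8, in capitals.
miR-409-5p: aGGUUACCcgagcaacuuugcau
miR-501-3p: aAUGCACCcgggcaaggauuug
The seeds differ. The miR-409-5p sequence lies at chr12:109743172-109743194 on the plus strand and the miR-501-3p sequence at chrX:7241270-7241291 on the minus strand.

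Monoamines and acetylcholine reach the hippocampus mainly from axons of neurons whose cell bodies lie elsewhere, in the raphe nuclei, the locus coeruleus, the midbrain and the medial septum, so that a hippocampal culture holds mostly the receiving side of these systems. Most of the receptors are G protein-coupled: some act through Gq to release calcium from stores, some through Gs to raise cyclic AMP and some through Gi to lower it. The nicotinic receptors and the Htr3 receptors are ion channels built from several subunits, and their channel opens on binding of the transmitter.

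Counts assigned to genes totalled 22254788 to 32096808 per library, and a count of 3 stood for 0.0951 to 0.136 CPM, the count relative to the library total. CPM values were scaled by TMM, edgeR's correction for library composition. Of the 12 marker genes for cholinergic, serotonergic, noradrenergic and dopaminergic neurons, Chat, the enzyme that makes acetylcholine, was at 0 in both controls. Th and Dbh, which make dopamine and noradrenaline, had control means of 0.210 and 0.257 CPM, and Tph2, which makes serotonin, had 1.02 CPM. Some markers of other cells differed between the groups. The summed astrocyte markers were 3660 to 3810 CPM in control, 4150 to 4390 with anti-miR-409-5p and 4020 to 4210 with anti-miR-501-3p. Of the 8 astrocyte markers, 4 were higher and 1 lower with anti-miR-409-5p, and 3 were higher and 2 lower with anti-miR-501-3p. The summed pan-neuronal markers were 7280 to 7440 CPM in control, 7790 to 8280 and 7600 to 8350 under the anti-miRs. By the test described below, 4 of these 8 genes were higher and 2 lower in each comparison. The summed excitatory neuron markers were lower in every inhibitor library, at 3860 to 3920 CPM in control, 3660 to 3750 and 3620 to 3810. The 7 excitatory genes were split, with 2 higher and 2 lower with anti-miR-409-5p, and 3 higher and 2 lower with anti-miR-501-3p. The summed inhibitory neuron markers were 512 to 514 CPM in control, 538 to 547 and 516 to 542 under the anti-miRs. Of these 10 genes, 2 were higher and 1 lower with anti-miR-409-5p, and 1 was higher and 3 lower with anti-miR-501-3p. The summed endothelial markers, at 13.8 to 16.8 CPM in control, were 15.3 to 17.6 with anti-miR-409-5p and 18.2 to 21.1 with anti-miR-501-3p. Most of this sum was Kdr, and each of the other endothelial genes was below 1 CPM in control. With anti-miR-501-3p the means of Kdr, Cdh5 and Flt1 were higher than in control, and those of Pecam1, Cldn5 and Tek were lower. Of the 4 tested endothelial genes, 0 were called with anti-miR-409-5p, and 1 was higher and 0 lower with anti-miR-501-3p. The sums of microglia and macrophage, oligodendrocyte lineage, mural and fibroblast, and proliferating progenitor markers overlapped the controls in both comparisons. The part of these differences in the receptor values was not tested. In RNA from whole cultures, fewer cells of a type and less RNA per cell cannot be told apart.

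In control neurons, 25 of the 49 receptor genes had a mean of at least 1 CPM and 24 were below. At least 1 CPM was reached by 8 of 14 serotonin, 6 of 9 adrenergic, 2 of 5 dopamine, 4 of 5 muscarinic and 5 of 16 nicotinic genes. Reads of all 49 genes summed to 608 CPM in control, of which the 5 muscarinic genes held 204 CPM, the 16 nicotinic genes 195, the 14 serotonin genes 132, the 9 adrenergic genes 73.2 and the 5 dopamine genes 4.78. The plot of control levels shows each family's genes in order, with the dopamine genes, at most 2.78 CPM, below the leading genes of the other families.

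**Figure D1:**
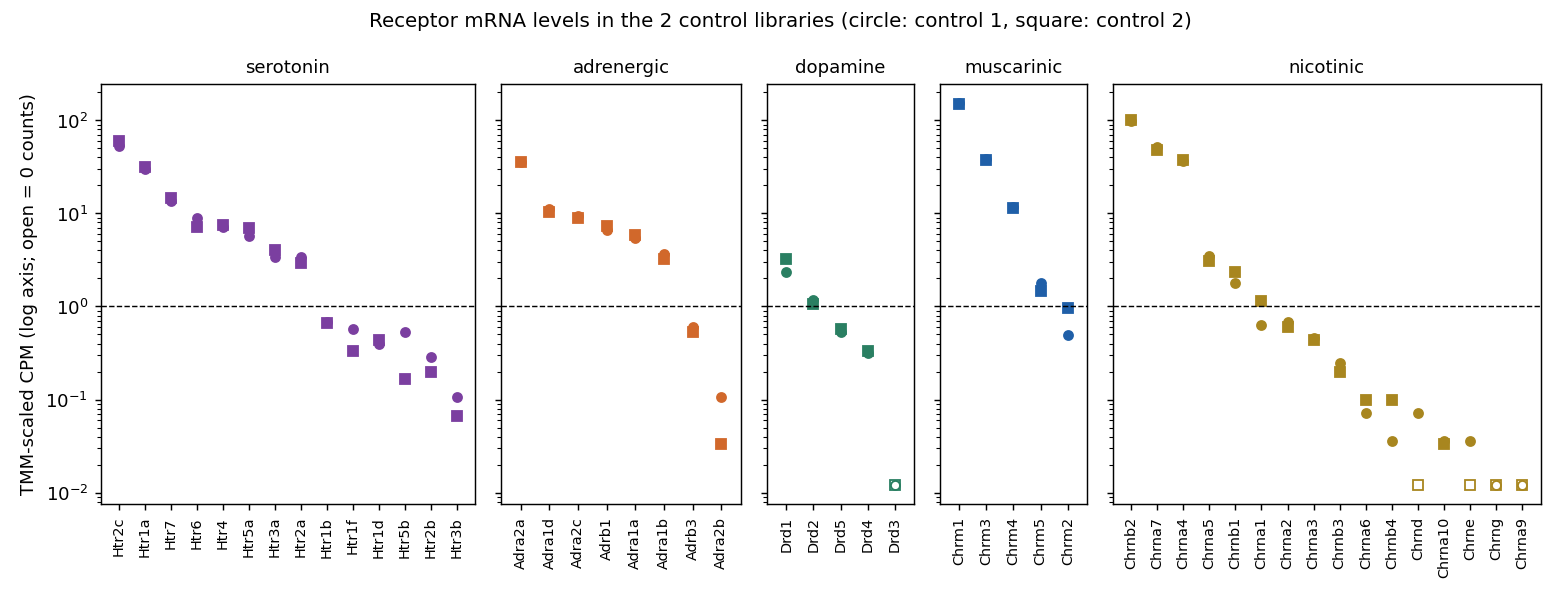
TMM-scaled CPM of 48 of the 49 receptor genes in each control library (log axis, one panel per family, genes in order of their control mean; open symbols mark 0 counts and the dashed line marks 1 CPM). Chrm1 at 152 CPM and Chrnb2 at 99.6 CPM had the highest means, and Chrna1 was the gene whose 2 control libraries fell on different sides of the line.

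The muscarinic M1 receptor gene Chrm1, a Gq-coupled receptor of principal neurons, had 155 and 149 CPM in the 2 controls, and Chrm3, its Gq-coupled relative, had 38.1 and 37.5 CPM. Chrm4, a Gi-coupled receptor, had 11.6 and 11.5 CPM, and Chrm5 had 1.78 and 1.47 CPM. Chrm2, the Gi-coupled receptor known as an autoreceptor of cholinergic terminals, was the muscarinic gene below the line, with 0.498 and 0.969 CPM. To compare levels between genes, values per kilobase of exon (RPKM) were used, since a long transcript yields more reads. On that scale Chrm1 stood at 23.5 RPKM, the highest of all 49 genes, followed within its family by Chrm4 at 8.02 and Chrm3 at 6.05 RPKM, an order that differs from the CPM order.

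Among nicotinic subunits, the 3 subunits of the main brain receptors were far above the others. Chrnb2, the beta2 subunit, had 98.1 and 101 CPM in the controls, Chrna7, which forms the alpha7 channel alone, had 52.3 and 48.0, and Chrna4, the partner of beta2, had 36.5 and 37.5. Per length they stood at 11.9, 11.1 and 7.37 RPKM. Chrna5, an accessory subunit, followed with 3.49 and 3.11 CPM and Chrnb1, a subunit of the muscle receptor, with 1.81 and 2.37 CPM. Chrna1, the muscle alpha subunit, was just below the line, with a mean of 0.888 CPM from 0.640 and 1.14. Chrna2 and Chrna3 had means of 0.639 and 0.448 CPM. Chrnb3, Chrna6, Chrnb4, Chrnd, Chrna10 and Chrne had too few counts to test, and Chrng and Chrna9 had 0 counts in both controls and 1 and 2 counts in all 10 libraries.

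Htr2c, the Gq-coupled serotonin 2C receptor, had the most reads of the serotonin genes, with 52.5 and 60.2 CPM, and Htr1a, the Gi-coupled 1A receptor that inhibits hippocampal neurons, had 29.8 and 31.4 CPM. Per length the order was the other way, with Htr1a at 6.83 and Htr2c at 6.04 RPKM. The Gs-coupled receptors Htr7, Htr6 and Htr4 had means of 14.1, 8.02 and 7.39 CPM, Htr5a had 6.32 CPM, the channel subunit Htr3a 3.73 and the Gq-coupled Htr2a 3.16. Htr1b, a receptor of axon terminals, was below the line at 0.676 and 0.668 CPM, with Htr1f, Htr1d and Htr5b at means of 0.452, 0.413 and 0.350 CPM. Htr2b and Htr3b had too few counts to test.

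Adra2a, the Gi-coupled alpha2A receptor, led the adrenergic genes with 36.2 and 35.9 CPM. Adra1d, a Gq-coupled receptor, had 11.1 and 10.4 CPM, and Adra2c, a relative of Adra2a, had 9.32 and 9.02. The Gs-coupled beta1 receptor gene Adrb1 had a mean of 7.02 CPM, and the Gq-coupled Adra1a and Adra1b had 5.65 and 3.49 CPM. Adrb3 at 0.570 CPM was below the line, and Adra2b had too few counts to test. Dopamine receptor reads were few. Drd1, the Gs-coupled D1 receptor, had 2.35 and 3.21 CPM, and Drd2, the Gi-coupled D2 receptor, had 1.17 and 1.07, which made its mean of 1.12 CPM the closest above the line. Drd5 had a mean of 0.551 CPM, Drd4 had too few counts to test and Drd3 had 0 counts in both controls and 1 in all libraries.

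Under the anti-miRs, 28 receptor genes had a group mean of at least 1 CPM with anti-miR-409-5p and 26 with anti-miR-501-3p. Chrna1 and Htr1b crossed to above the line in both groups, with means of 1.06 and 1.08 CPM with anti-miR-409-5p and 1.20 and 1.15 CPM with anti-miR-501-3p. Chrm2 crossed with anti-miR-409-5p, at 1.18 CPM, and Drd2 fell below the line with anti-miR-501-3p, at 0.840 CPM. These crossings describe group means, and of the 4 genes only Htr1b with anti-miR-501-3p passed the test of change. With the line drawn at 0.5 CPM, 31 genes stood above it in control, at 2 CPM 23, and at 1 RPKM 20.

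Against control, anti-miR-409-5p went with more RNA of 2 receptor genes, Htr2c and Chrna5, and with less RNA of 4, Htr6, Adra1d, Adra2a and Chrm4. The test was edgeR's quasi-likelihood test over all 16884 genes with enough counts, at a Benjamini-Hochberg adjusted p of 0.05, and 36 of the 49 receptor genes could be tested. The 6 called genes are 16.7% of the tested receptor genes, beside 27.8% of all tested genes. By direction, 15.6% of all tested genes were called higher and 12.2% lower. The median log2 fold change of the tested receptor genes was -0.03, beside -0.01 for all tested genes. At an unadjusted p below 0.05 there were 12 receptor genes (33.3%), beside 39.1% of all tested genes. All 4 libraries lay above both controls for 6 receptor genes and below both for 9, where 24.1% and 24.0% of all tested genes did so. The count rested on single libraries: without control replicate 1 only Htr2c was called, without control replicate 2 3 genes were called (Htr2c and Chrm2 higher, Htr6 lower), and without anti-miR-409-5p replicate 4 Htr2c and Htr6.

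Under anti-miR-501-3p, Htr2c and Htr1b were higher than in control, and 6 receptor genes were lower: Adra1d, Adra2a, Adra2c, Chrm4, Chrna4 and Chrnb2. These 8 are 22.2% of the 36 tested receptor genes, beside 33.0% of all tested genes, of which 17.6% were called higher and 15.4% lower. The median log2 fold change was -0.10 for the receptor genes and -0.01 for all tested genes. At an unadjusted p below 0.05 there were 13 (36.1%), beside 42.6% of all tested genes. All 4 libraries lay above both controls for 2 receptor genes and below both for 14, where 24.3% and 25.6% of all tested genes did so. Both comparisons use the same 2 control libraries, so their values are given side by side and not as support for each other. The count of receptor genes called with anti-miR-501-3p fell without either control, which leaves 1 control library. What part of that fall is shared with all tested genes is not given here.

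Between the anti-miRs, edgeR called 0 of the 36 receptor genes and 0 of all genes tested, and DESeq2 called 0 receptor genes and 3 of all genes. At an unadjusted p below 0.05 there were 3 receptor genes, beside 5.88% of all tested genes. Chrna5 was higher with anti-miR-409-5p by 0.30 ± 0.11 (log2, SE; unadjusted p = 0.0168, edgeR adjusted p = 0.833), Adra2a by 0.10 ± 0.04 (0.0279, 0.844) and Drd2 by 0.45 ± 0.21 (0.0452, 0.848). With the replicate number as a block, 252 of all genes (1.49%) were called, 0 of them receptor genes. In that fit 6 receptor genes had an unadjusted p below 0.05. The share of all tested genes at that p was not counted, so the 6 cannot be set against it. A receptor gene called against control under one anti-miR and not under the other is therefore not shown to differ between them.

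**Figure D2:**
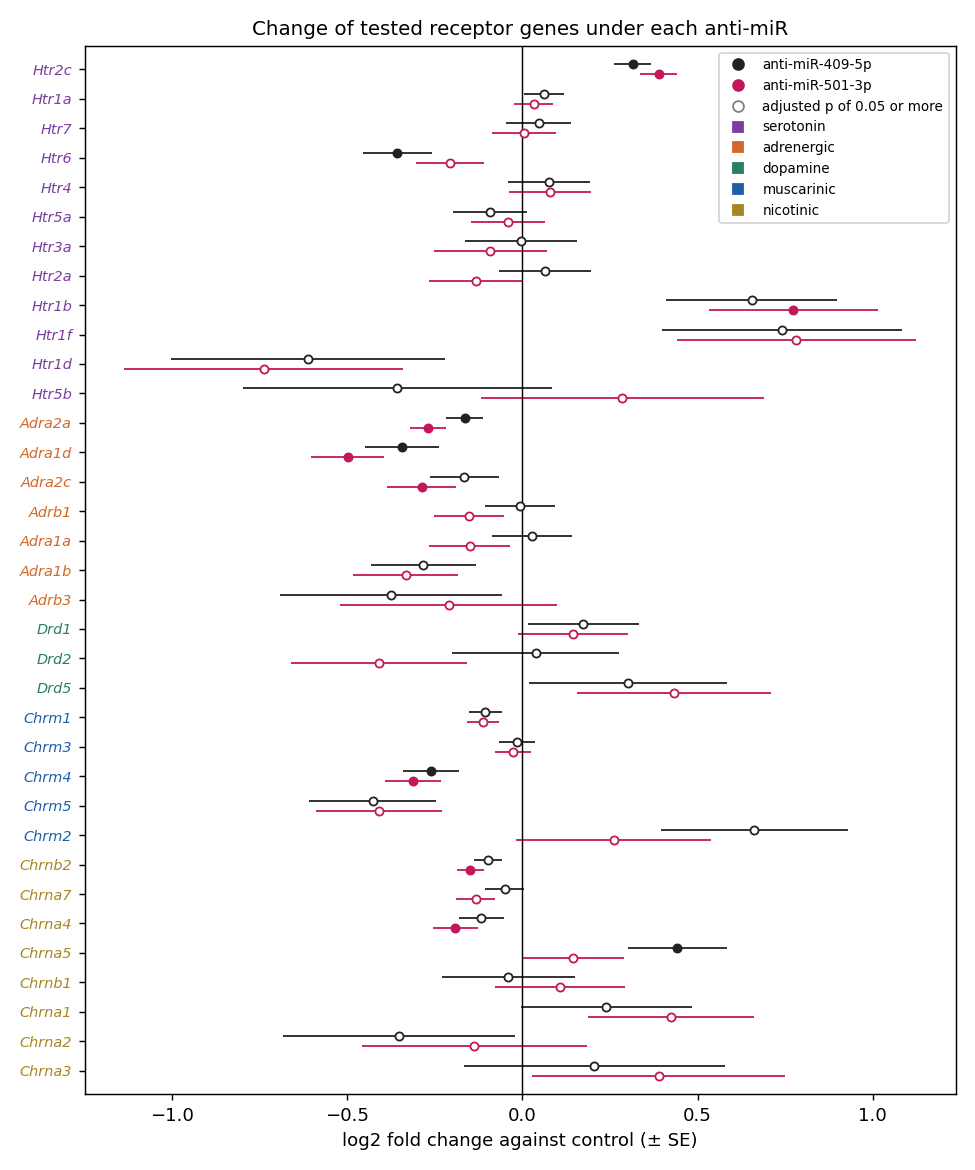
Log2 fold change against control with its standard error for 35 of the 36 tested receptor genes, grouped by family (label colour), with anti-miR-409-5p (black) and anti-miR-501-3p (pink); filled points passed the adjusted p of 0.05. Htr2c lies to the right of 0 and Adra1d, Adra2a and Chrm4 to the left with both inhibitors, and the error bars are widest for genes below 1 CPM such as Htr1d and Htr1f.

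Htr2c lies at chrX:146962513-147197277 (mm10, plus strand). It had 52.5 and 60.2 CPM in the controls, 68.5, 68.3, 71.8 and 72.0 CPM with anti-miR-409-5p and 72.9, 73.1, 72.7 and 76.4 CPM with anti-miR-501-3p, in the order of the replicate numbers, as for the genes that follow. Every inhibitor library lay above both controls. The log2 fold change was 0.32 ± 0.05 (SE) with anti-miR-409-5p (edgeR adjusted p = 4.1e-04) and 0.39 ± 0.05 with anti-miR-501-3p (edgeR adjusted p = 4.5e-05). It was the receptor gene called in both comparisons with each single library left out, at 0.23 to 0.43 with anti-miR-409-5p and 0.31 to 0.50 with anti-miR-501-3p.

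Htr1b (chr9:81628291-81633828, minus strand) had 0.676 and 0.668 CPM in the controls, 1.16, 0.826, 1.32 and 1.01 CPM with anti-miR-409-5p and 1.29, 1.05, 1.22 and 1.05 CPM with anti-miR-501-3p. No inhibitor library fell to the control level. The counts were low, 19 and 20 in the controls and 26 to 37 in the others. The log2 fold change was 0.77 ± 0.24 with anti-miR-501-3p (edgeR adjusted p = 0.0195) and 0.65 ± 0.25 with anti-miR-409-5p, which did not pass (0.0542). The call with anti-miR-501-3p was lost without either control. The antisense gene D430036J16Rik covers 18% of the exon length of Htr1b and the library kit does not mark strand, so reads of the pair cannot be told apart there; D430036J16Rik itself was at 0.0172 to 0.0187 CPM.

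Htr6 (chr4:139061108-139075570, minus strand), a Gs-coupled receptor, had 8.86 and 7.18 CPM in the controls, 5.68, 6.61, 6.35 and 6.34 CPM with anti-miR-409-5p and 6.70, 6.76, 7.27 and 7.05 CPM with anti-miR-501-3p. The anti-miR-409-5p libraries were all below the controls, while 1 anti-miR-501-3p library was above control 2. It fell by 0.36 ± 0.10 on the log2 scale with anti-miR-409-5p (edgeR adjusted p = 0.0134), and the value with anti-miR-501-3p was -0.21 ± 0.10 (0.118). The value with anti-miR-409-5p ranged from -0.50 to -0.19 with single libraries left out, and the call was lost without control replicate 1. The other 6 serotonin genes above 1 CPM did not pass in either comparison. Htr1a, for one, had 31.2 to 32.9 CPM with anti-miR-409-5p and 29.9 to 33.6 with anti-miR-501-3p, around its control values. Htr1f and Htr1d, both below 1 CPM, had larger and less certain values. Htr1f stood at 0.74 ± 0.34 and 0.78 ± 0.34 with anti-miR-409-5p and with anti-miR-501-3p, and Htr1d at -0.61 ± 0.39 and -0.74 ± 0.40, with none past the threshold.

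Adrenergic receptor RNA was lower as a sum, at 73.2 CPM in control, 65.2 CPM with anti-miR-409-5p and 60.2 CPM with anti-miR-501-3p. The muscarinic sum (204, 191 and 189 CPM) and the nicotinic sum (195, 184 and 177 CPM) were lower too. The serotonin sum (132, 147 and 149 CPM) and the dopamine sum (4.78, 5.18 and 4.88 CPM) were higher. Of the 8 tested adrenergic genes, 2 were lower with anti-miR-409-5p and 3 with anti-miR-501-3p (25% and 37.5%, beside 12.2% and 15.4% of all tested genes), with none higher. A difference between the adrenergic family and the other genes was not tested. The tested adrenergic genes had a median GC content of 56.9%, beside 49.5% for all tested genes. After the GC and length correction described below, 0 of them were called in either comparison. Adra1d (chr2:131545850-131562283, minus strand) had 11.1 and 10.4 CPM in the controls, 9.34, 8.58, 9.08 and 7.04 CPM with anti-miR-409-5p and 7.85, 8.32, 7.46 and 6.78 CPM with anti-miR-501-3p. All inhibitor libraries were below both controls. It fell by 0.34 ± 0.11 with anti-miR-409-5p (edgeR adjusted p = 0.0210) and by 0.50 ± 0.11 with anti-miR-501-3p (edgeR adjusted p = 0.00173). An antisense gene, Gm14285, covers 7.74% of its exon length and had 0.0938 to 0.190 CPM.

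Adra2a (chr19:54044151-54048982, plus strand) had 36.2 and 35.9 CPM in the controls, 32.6, 33.3, 31.5 and 31.3 CPM with anti-miR-409-5p and 31.0, 29.9, 30.5 and 28.3 CPM with anti-miR-501-3p. The 3 groups did not overlap. It fell by 0.16 ± 0.05 (edgeR adjusted p = 0.0265) and by 0.27 ± 0.05 (edgeR adjusted p = 9.4e-04). Under anti-miR-501-3p the calls of Adra2a and Adra1d held with every single library left out. Under anti-miR-409-5p both were lost without control 1, control 2 or replicate 4 of that group, and Adra2a also without replicate 3.

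Adra2c (chr5:35278319-35281763, plus strand) had 9.32 and 9.02 CPM in the controls, 8.18, 8.32, 8.44 and 7.80 CPM with anti-miR-409-5p and 7.85, 8.32, 6.20 and 7.59 CPM with anti-miR-501-3p. All inhibitor libraries were below both controls. It fell by 0.29 ± 0.10 with anti-miR-501-3p (edgeR adjusted p = 0.0320), a call lost with the replicate number as a block (-0.23 ± 0.10, adjusted p = 0.0711), without either control and without replicate 3 or 4 of that group. Under anti-miR-409-5p its value was -0.17 ± 0.10 (0.225). Adrb1 was nearly level with anti-miR-409-5p, at -0.01 ± 0.10, and stood at -0.15 ± 0.10 with anti-miR-501-3p, with neither past the threshold. Of the 3 tested dopamine genes none passed in either comparison. Drd1 stood at 0.17 ± 0.16 and 0.14 ± 0.16, and Drd2 at 0.04 ± 0.24 with anti-miR-409-5p and -0.41 ± 0.25 with anti-miR-501-3p.

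Chrm4 (chr2:91927249-91928688, plus strand) was the muscarinic gene called in both comparisons. It had 11.6 and 11.5 CPM in the controls, 10.5, 9.85, 8.90 and 9.29 CPM with anti-miR-409-5p and 9.41, 8.86, 9.29 and 9.63 CPM with anti-miR-501-3p. All inhibitor libraries were below both controls. It fell by 0.26 ± 0.08 (edgeR adjusted p = 0.0216) and by 0.31 ± 0.08 (edgeR adjusted p = 0.00620). The call with anti-miR-501-3p was lost without control replicate 1, and that with anti-miR-409-5p without control 1, control 2 or replicate 3 or 4 of that group.

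Chrm1 (chr19:8663789-8683587, plus strand), the most abundant of the receptor RNAs per length, had 155 and 149 CPM in the controls, 151, 136, 138 and 142 CPM with anti-miR-409-5p and 145, 139, 135 and 144 CPM with anti-miR-501-3p. Under anti-miR-409-5p 1 library reached the range of the controls, and with anti-miR-501-3p none did. Its log2 fold changes were -0.10 ± 0.05 (edgeR adjusted p = 0.0978) and -0.11 ± 0.05 (edgeR adjusted p = 0.0675). With the replicate number as a block both passed, at -0.09 ± 0.03 (adjusted p = 0.0391) and -0.10 ± 0.03 (0.0223). Chrm3 was almost level, at -0.02 ± 0.05 and -0.03 ± 0.05. Chrm5 had 1.04 to 1.36 CPM with anti-miR-409-5p and 1.11 to 1.26 with anti-miR-501-3p, all below its controls, with log2 fold changes of -0.43 ± 0.18 and -0.41 ± 0.18 that did not pass (edgeR adjusted p = 0.0891 and 0.0919). Chrm2 stood at 0.66 ± 0.27 with anti-miR-409-5p (edgeR adjusted p = 0.0717), with all 4 libraries at 1.08 to 1.31 CPM and so above both controls, and at 0.26 ± 0.28 with anti-miR-501-3p.

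The nicotinic subunits did not move together. Chrna5 (chr9:54980880-55007779, plus strand) had 3.49 and 3.11 CPM in the controls, 3.62, 4.64, 4.45 and 5.10 CPM with anti-miR-409-5p and 3.20, 3.87, 3.63 and 3.86 CPM with anti-miR-501-3p. The anti-miR-409-5p libraries were all above the controls and the anti-miR-501-3p libraries overlapped them. It rose by 0.44 ± 0.14 with anti-miR-409-5p (edgeR adjusted p = 0.0264) and stood at 0.15 ± 0.14 with anti-miR-501-3p (0.477). The call was lost without either control or without anti-miR-409-5p replicate 4.

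Chrnb2 (chr3:89746195-89764632, minus strand) had 98.1 and 101 CPM in the controls, 96.0, 93.1, 91.5 and 91.4 CPM with anti-miR-409-5p and 89.8, 91.7, 89.1 and 88.9 CPM with anti-miR-501-3p. All inhibitor libraries were below both controls, by a small amount. It fell by 0.15 ± 0.04 with anti-miR-501-3p (edgeR adjusted p = 0.00811), and its value with anti-miR-409-5p was -0.10 ± 0.04 (0.0718). The RNA-editing gene Adar lies on the opposite strand and overlaps 16.3% of the exon length of Chrnb2. Adar was lower too, by 0.14 with anti-miR-501-3p (edgeR adjusted p = 0.00892), and reads in the overlap cannot be assigned to one of the pair without strand.

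Chrna4 (chr2:181018380-181043546, minus strand) had 36.5 and 37.5 CPM in the controls, 36.3, 32.3, 34.4 and 33.6 CPM with anti-miR-409-5p and 35.2, 31.2, 33.5 and 29.7 CPM with anti-miR-501-3p. All inhibitor libraries were below both controls, and the libraries of the 2 inhibitors overlapped each other. It fell by 0.19 ± 0.06 with anti-miR-501-3p (edgeR adjusted p = 0.0284), and its value with anti-miR-409-5p was -0.12 ± 0.06 (0.186). The calls of Chrnb2 and Chrna4 were lost without either control, and that of Chrna4 also without replicate 2 or 4 of the anti-miR-501-3p group. Chrna7 (chr7:63098692-63212569, minus strand) had 52.3 and 48.0 CPM in the controls, 49.7, 50.0, 47.4 and 46.4 CPM with anti-miR-409-5p and 47.6, 45.8, 47.4 and 42.1 CPM with anti-miR-501-3p. The anti-miR-501-3p libraries were all below the controls, though not past the threshold, at -0.13 ± 0.06 (edgeR adjusted p = 0.0769).

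**Figure D3:**
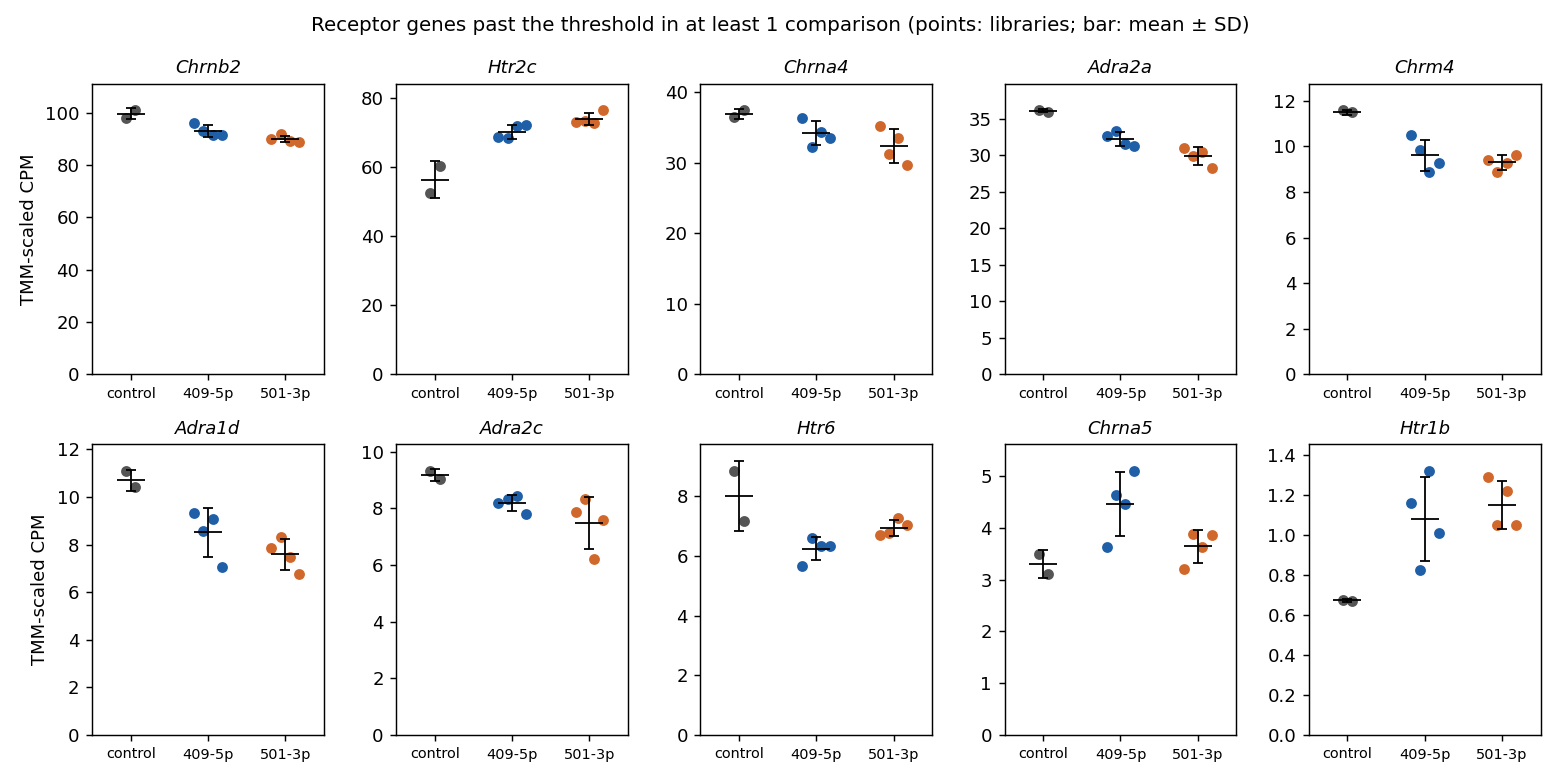
TMM-scaled CPM per library of the 10 receptor genes that passed the adjusted p of 0.05 in at least 1 comparison against control (points are libraries, bars the mean ± SD, axes from 0). Htr2c is above both controls in all 8 inhibitor libraries, and Adra2a, at 35.9 to 36.2 CPM in control, is below in all 8.

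Read by signalling class, the calls were few, and their counts stand beside 15.6% of all tested genes called higher and 12.2% lower with anti-miR-409-5p, and 17.6% and 15.4% with anti-miR-501-3p. Of the 11 tested Gi-coupled genes, 2 were lower with anti-miR-409-5p, and 3 were lower and 1 higher with anti-miR-501-3p. Of the 8 Gq-coupled genes, 1 was higher and 1 lower in each comparison, namely Htr2c and Adra1d. Of the 8 Gs-coupled genes, Htr6 was lower with anti-miR-409-5p and none was called with anti-miR-501-3p. Of the 8 tested nicotinic subunits, Chrna5 was higher with anti-miR-409-5p, and Chrnb2 and Chrna4 were lower with anti-miR-501-3p. The serotonin channel subunit Htr3a was called in neither.

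The genes called higher and those called lower differed in base composition. The genes called higher had transcripts of low GC content, 42.1% for Htr2c, 45.2% for Htr1b and 46.4% for Chrna5. The genes called lower had 57.0% to 65.4% GC with anti-miR-409-5p and 53.1% to 65.5% with anti-miR-501-3p, the richest being Adra2c at 65.5%, Adra1d at 65.4% and Htr6 at 63.1%. Receptor genes that were not called spanned the same range, from 39.4% to 65.5% with anti-miR-409-5p and from 39.4% to 63.1% with anti-miR-501-3p, among them Htr1f at 39.4%, Htr2a at 41.3% and Adrb1 at 58.8%. Across the 36 tested receptor genes, Spearman's rho between GC content and log2 fold change was -0.65 with anti-miR-409-5p and -0.66 with anti-miR-501-3p. Across all 16839 tested genes with a GC value it was -0.69 and -0.70. These are descriptions across genes, which share the same libraries. Between the anti-miRs, rho was 0.12 for the receptor genes.

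**Figure D4:**
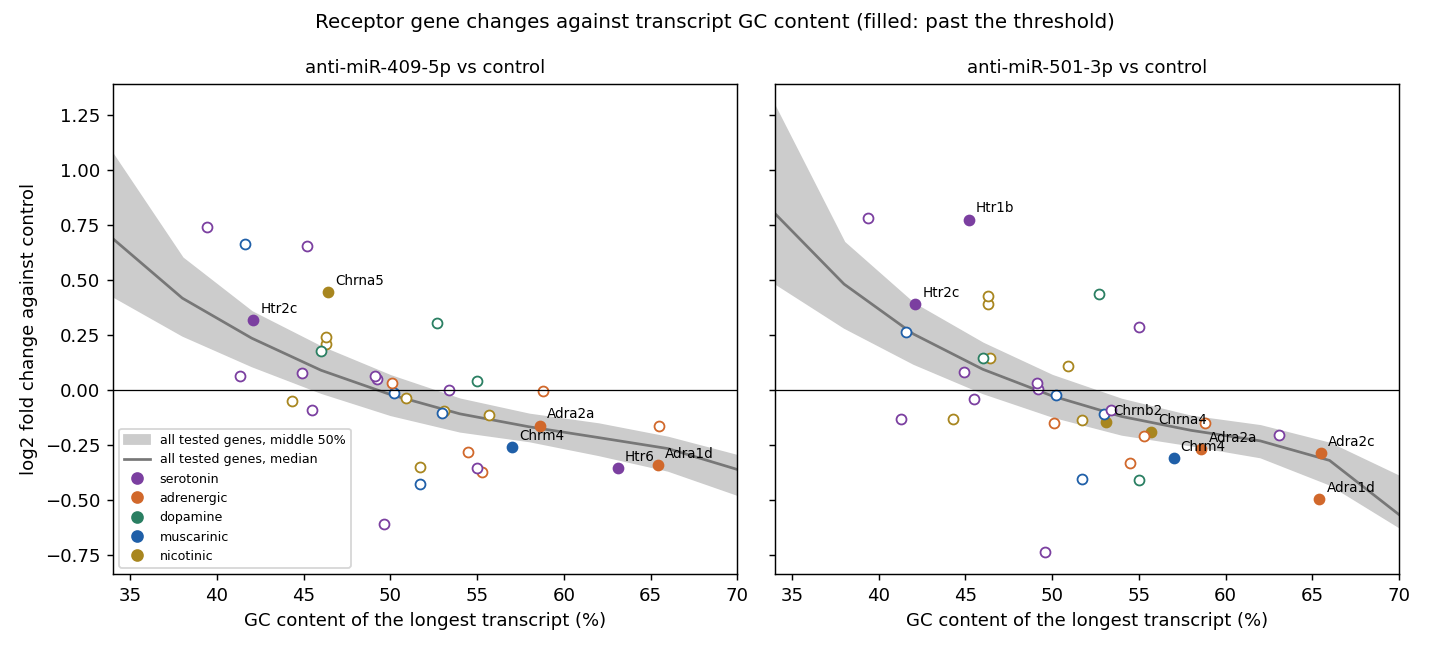
Log2 fold change against control of 35 of the 36 tested receptor genes (points, coloured by family, filled where the adjusted p was below 0.05) against the GC content of the longest transcript, over the median and middle 50% of all tested genes in GC bins (grey line and band). Htr2c at 42.1% GC lies on the upper left and Adra1d at 65.4% GC on the lower right, along the slope of all genes. Htr1b lies above the band with both inhibitors and Chrna5 with anti-miR-409-5p. Of the genes called lower, Chrm4 lies below it with both inhibitors and Htr6 with anti-miR-409-5p. Adra1d and, narrowly, Adra2a lie below it with anti-miR-501-3p.

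When the dependence on transcript GC content and length was taken out library by library, 0 receptor genes were called with anti-miR-409-5p, where 7.46% of all tested genes were, and 2 with anti-miR-501-3p, where 10.1% were. Htr2c remained higher with anti-miR-501-3p at 0.14 ± 0.04 (edgeR adjusted p = 0.0379), and with anti-miR-409-5p its corrected value was 0.09 ± 0.04 (0.266). Chrna7, with a GC content of 44.3%, became the second called gene, at -0.28 ± 0.06 with anti-miR-501-3p (edgeR adjusted p = 0.00427). Its corrected value with anti-miR-409-5p was -0.18 ± 0.06 (0.0758). Chrna5 and Htr1b kept most of their size with wider relative error, Chrna5 at 0.38 ± 0.14 with anti-miR-409-5p (0.0982) and Htr1b at 0.64 ± 0.25 with anti-miR-501-3p (0.111). Adra2a with anti-miR-409-5p moved from -0.16 to -0.01, and Adra1d with anti-miR-501-3p from -0.50 to -0.16 ± 0.10 (0.368). Adra2c with anti-miR-501-3p changed sign, from -0.29 to 0.02. The source of the GC trend was not tested, and the correction removes any difference that runs along it, whatever its source.

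**Figure D5:**
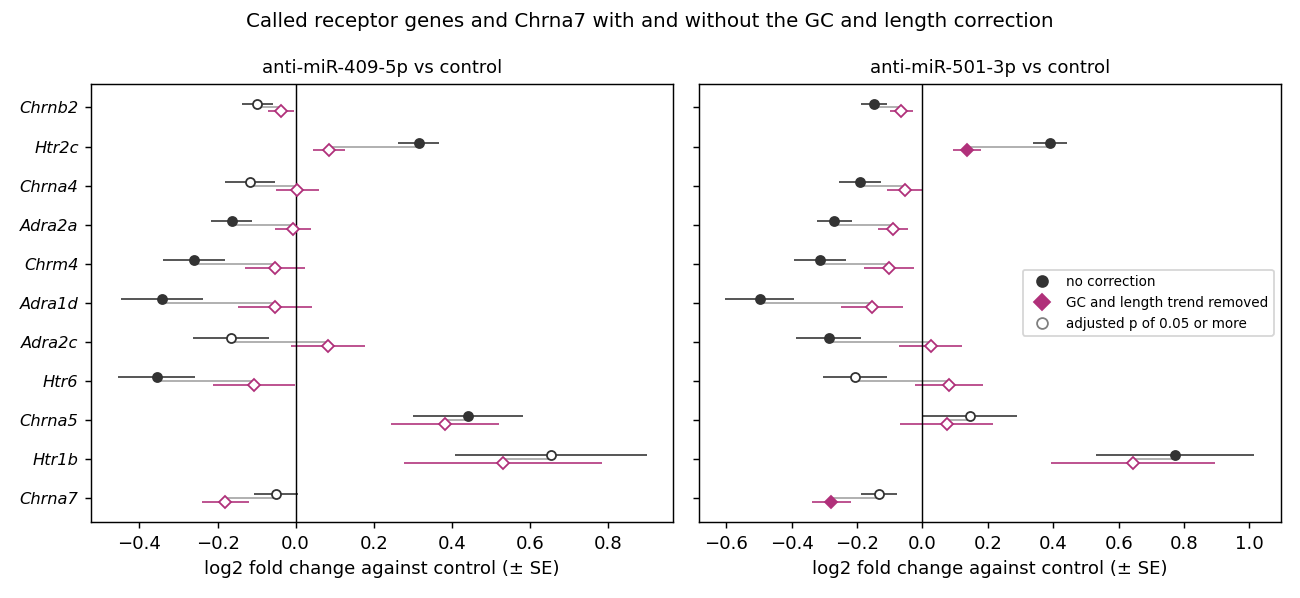
Log2 fold change with its standard error of the 10 called receptor genes and Chrna7, without correction (dark circles) and with the GC and length trend taken out (pink diamonds); filled symbols passed the adjusted p of 0.05. The high-GC genes move toward 0, Htr2c shrinks from 0.39 to 0.14 with anti-miR-501-3p, and Chrna7 moves away from 0.

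Matches to the microRNA seeds were sought, for every gene, in its longest 3′ UTR (GENCODE vM21, mm10), on the strand of the transcript. For miR-409-5p the motif that pairs with bases 2 to 8 is GGTAACC, the motif that pairs with bases 2 to 7 and ends in an A is GTAACCA, and a match to both is GGTAACCA. For miR-501-3p the motif for bases 2 to 8 is GGTGCAT, the motif for bases 2 to 7 with the A is GTGCATA, and a match to both is GGTGCATA. A match to both was counted once. Chrm4 and Chrm5 had no annotated 3′ UTR. A miR-409-5p site was found in 6 of the 47 receptor genes with a 3′ UTR, and in 3 of the 34 tested ones (8.82%), beside 10.5% of all tested genes. A miR-501-3p site was found in 8 of the 47, all 8 of them among the tested genes (23.5%), beside 13.6% of all tested genes. Both shares of all tested genes refer to the 14231 with a 3′ UTR. The median 3′ UTR was 1543 bases long in the tested receptor genes and 1393 in those 14231, and the differences in share were not tested.

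The miR-409-5p sites of the tested genes are printed because the list holds the most abundant receptor RNA, Chrm1, and the serotonin receptor genes Htr2c and Htr1b. Htr2c was called higher with both inhibitors, and Htr1b with anti-miR-501-3p alone. Each site is printed as a window of 30 bases of the transcript with the match in capitals.
Htr2c: tgggaaggcctGTAACCAaaagctaatgga
Htr1b: gaatttttaaaGTAACCAagagagctggtt
Chrm1, first site: agaatcccagaGTAACCAggcacaaaatgc
Chrm1, second site: accagctatctGTAACCAgcagcctcaagg
All 4 matches are GTAACCA, which pairs with bases 2 to 7 of the microRNA and has an A opposite its first base. Under the inhibitor of miR-409-5p, Htr2c was higher, Htr1b was at 0.65 ± 0.25 without passing, and Chrm1, with 2 sites, was at -0.10 ± 0.05. Htr2c was also higher under the inhibitor of miR-501-3p, for which its 3′ UTR held no site. The Htr2c site does not lie in the 3′ UTR of the transcript with the longest coding sequence. Chrnb3, Adra2b and Chrnd also held a site and had too few counts to test.

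The miR-501-3p sites of the 3 genes of highest level among the 8 are printed likewise.
Chrnb2: caaagttaaaaGGTGCATctgaatgtgtcg
Chrna4: tctaccattatGGTGCATAcgtggctccaa
Chrm3: ggatgctttcaGTGCATAggatcctcaagc
The Chrna4 site is the full match of 8 bases. Under the inhibitor of miR-501-3p, Chrnb2 and Chrna4 were lower and Chrm3 was at -0.03 ± 0.05. The sites of Chrnb2 and Chrna4 are not in the 3′ UTR of the transcript with the longest coding sequence, and whether these neurons carry the longer 3′ UTR was not tested. The other 5 genes with a miR-501-3p site were Adrb1, Htr2a, Drd1, Chrna1 and Drd5, with log2 fold changes of -0.15, -0.13, 0.14, 0.42 and 0.43 under its inhibitor and none past the threshold. A match is a run of letters and not a measured binding site.

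Genes around the receptors were read from 5 lists: transmitter synthesis, transport and breakdown, nicotinic chaperones and lynx proteins, G protein alpha subunits, effectors, and desensitisation. Of their 79 tested genes, 15 were higher and 15 lower with anti-miR-409-5p (38%, beside 27.8% of all tested genes). With anti-miR-501-3p 16 were higher and 20 lower (45.6%, beside 33.0%). The lists were chosen with earlier results of these data known, so these shares were open to selection, and their difference from all genes was not tested. With upper-quartile scaling or total counts the split with anti-miR-409-5p was 14 higher and 23 lower, where 31.4% and 32.0% of all tested genes were called. Without control replicate 1, which leaves 1 control library, fewer of them were called in both comparisons. With anti-miR-409-5p fewer of all tested genes were then called too. After the GC and length correction 11 genes were called with anti-miR-409-5p (13.9%, beside 7.46% of all tested genes) and 12 with anti-miR-501-3p (15.2%, beside 10.1%). The median log2 fold changes of the 79 genes were -0.01 and -0.02. Between the anti-miRs 0 were called. The counts per list that follow stand beside 15.6% of all tested genes called higher and 12.2% lower with anti-miR-409-5p. With anti-miR-501-3p these shares were 17.6% and 15.4%.

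Slc18a2, the vesicular monoamine transporter that loads monoamines into synaptic vesicles, was higher in both comparisons. It had 2.34 ± 0.24 CPM in control (SD, n = 2), 4.83 ± 0.72 with anti-miR-409-5p (n = 4) and 4.92 ± 0.46 with anti-miR-501-3p (n = 4). Its log2 fold changes were 1.04 ± 0.16 (SE; edgeR adjusted p = 1.8e-04) and 1.07 ± 0.16 (edgeR adjusted p = 8.6e-05), and 0.98 and 1.01 after the GC and length correction, both past the threshold. It was called with each single library left out, at 0.94 to 1.16 and 0.99 to 1.19. It is also 1 of the 12 markers of transmitter neurons, of which 3 could be tested and none of the others was called. The summed level of all 12 was 5.41 to 6.18 CPM in control, 7.21 to 8.40 with anti-miR-409-5p and 7.43 to 8.53 with anti-miR-501-3p. Without Slc18a2 the other 11 summed to 3.24 to 3.67, 2.69 to 3.37 and 2.88 to 3.67 CPM, with the groups overlapping. Maoa, which breaks down serotonin and noradrenaline, had 38.3 CPM in control, 47.2 with anti-miR-409-5p and 50.7 with anti-miR-501-3p and rose by 0.30 and 0.41, and Bche, an enzyme that splits acetylcholine, rose by 0.55 and 0.45. Slc29a4, a low-affinity monoamine transporter of the plasma membrane, had 145, 125 and 124 CPM and fell by 0.21 and 0.23. None of these 3 passed after the correction.

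Of the 9 tested nicotinic chaperones and lynx proteins, 1 was higher and 2 lower with anti-miR-409-5p, and 2 were higher and 2 lower with anti-miR-501-3p. Ly6h, a Ly6 protein that limits alpha7 receptors at the cell surface, had 326 CPM in control, 268 with anti-miR-409-5p and 262 with anti-miR-501-3p. It fell by 0.28 ± 0.06 and 0.31 ± 0.06 (edgeR adjusted p = 0.00500 and 0.00195), and by 0.18 and 0.20 after the correction (0.0463 and 0.0214). Ly6e fell by 0.21 and 0.16, Lypd6 rose by 0.22 and 0.23, and Ric3, the chaperone that alpha7 needs for assembly, rose by 0.15 with anti-miR-501-3p, none of them past the threshold after the correction.

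Of the 11 tested G protein alpha subunits, 3 were higher and 2 lower with anti-miR-409-5p, and 3 were higher and 4 lower with anti-miR-501-3p. Gnaq, an alpha subunit through which Chrm1, Chrm3 and Htr2c signal, had 316, 382 and 384 CPM. It rose by 0.27 ± 0.05 and 0.28 ± 0.05 (edgeR adjusted p = 0.00168 and 0.00103), and by 0.19 in both comparisons after the correction (0.00417 and 0.00203). Its relative Gna11 went the other way, with 192, 178 and 174 CPM. Gna11 fell by 0.113 and 0.145 (edgeR adjusted p = 0.0316 and 0.00672), and neither value passed after the correction. Among the Gi subunits, Gnai3 rose by 0.28 and 0.35 and Gnai1 by 0.44 and 0.57, while Gnai2 fell by 0.24 and 0.27. After the correction only Gnai1 with anti-miR-501-3p passed among these 3, at 0.35 (edgeR adjusted p = 0.0179).

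Of the 30 effectors, 7 were higher and 5 lower with anti-miR-409-5p, and 7 were higher and 8 lower with anti-miR-501-3p. Kcnj3, a subunit of the potassium channels that Gi-coupled receptors open, had 63.8, 94.0 and 91.6 CPM and rose by 0.56 ± 0.09 and 0.52 ± 0.09 (edgeR adjusted p = 0.00104 in both). Kcnq3 and Kcnq5, subunits of the M-type potassium channel that muscarinic receptors close, rose by 0.29 and 0.19 with anti-miR-409-5p and by 0.28 and 0.24 with anti-miR-501-3p. Prkar2b, a regulatory subunit of protein kinase A, rose by 0.41 and 0.44. These 4 genes passed in both comparisons after the correction too, with Kcnj3 at 0.39 and 0.34. The adenylyl cyclase genes Adcy3 and Adcy5 fell by 0.22 and 0.17 with anti-miR-409-5p and by 0.17 and 0.20 with anti-miR-501-3p, and neither passed after it. Of the 17 desensitisation genes, 1 was higher and 3 lower, and 1 was higher and 4 lower. Rgs17, a regulator of Gi signalling with a GC content of 36.9%, rose by 0.64 and 0.71, and Grk2, Rgs14 and Arrb2 fell by 0.15, 0.25 and 0.15 with anti-miR-409-5p. Grk6 fell by 0.23 with anti-miR-501-3p. None of these 5 passed after the correction. In this list 2 genes were lower with anti-miR-409-5p after it, Rgs7 at -0.381 (edgeR adjusted p = 9.7e-06) and Rgs2 at -0.166 (0.0353). With anti-miR-501-3p 1 was lower, Rgs7 at -0.489 (4.6e-07). Without the correction Rgs7, with a GC content of 36.7%, stood at 0.128 and 0.107, with neither past the threshold.

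The authors' deposited table for anti-miR-409-5p lists 38 of the receptor genes and gives 22 of them an adjusted p. It has 1 higher and 1 lower at 0.05, Htr2c at 0.32 (adjusted p = 3.8e-05) and Adra1d at -0.34 (0.0420). The authors' deposited table for anti-miR-501-3p lists 39, gives 24 an adjusted p and has 1 higher and 4 lower: Htr2c at 0.39 (1.7e-08), Adra1d at -0.49 (9.0e-04), Adra2a at -0.26 (0.00208), Chrnb2 at -0.14 (0.0209) and Chrm4 at -0.31 (0.0290). All of these were also called from the counts, and the authors' deposited tables called no other receptor gene.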

How the data were processed

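RNA of 10 libraries was sequenced as 50 bp single-end reads from TruSeq RNA v2 libraries on a HiSeq2000, per the labels' protocols. STAR 2.5.2b, Subread 1.5.1, featureCounts and FastQC 0.11.5 were used with build mm10, per the submitters' processing notes. The annotation release, the strand setting and the handling of reads with several positions are not given in the sources used here. The deposited values are raw counts per Ensembl gene. The log2 fold changes, p-values, adjusted p-values and normalized signal of the authors' deposited comparison tables were used for the comparison of calls alone.

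Symbols were matched for 48349 of 48709 genes. After filterByExpr, 16884 genes were tested with edgeR 4.0.16 (R 4.3.3; TMM, robust quasi-likelihood fit of 10 libraries in 3 groups, two-sided, prior count of 2), and standard errors are the fold change divided by the square root of F. The GC and length correction fitted splines (5 degrees of freedom) per library to genes whose mean log2 CPM exceeded 1 and entered them as offsets. DESeq2 1.42.0 and sva 3.50.0 served as alternatives. The code was tested on simulated data. Named genes were every receptor gene of at least 1 CPM in control, called, next to the line or with a seed site, and up to 4 genes of smallest p per surrounding list. Gna11, Rgs7 and Rgs2 are named beyond these. Members and lists were chosen with earlier results of these data known. The labels do not say that replicate numbers mark a shared culture, so the main tests were unpaired and the replicate block was an alternative. Deviations of libraries of one number in the 2 inhibitor groups correlated at 0.375, 0.164, 0.121 and 0.306. The 12 pairs with different numbers ranged from -0.333 to 0.177, the highest being anti-miR-409-5p replicate 3 with anti-miR-501-3p replicate 4, so that replicate did not correlate best with its own number. For the controls, with 2 numbers, the correlations of one number were 0.293 and 0.0423 with anti-miR-409-5p and 0.359 and 0.211 with anti-miR-501-3p. Control replicate 2 correlated more with replicate 3 of each inhibitor group, at 0.229 and 0.299. The deviations of the 2 controls from their own mean are each other's negative. Their correlations are therefore not separate evidence for each control. These values do not settle whether the numbers mark shared cultures. No pair of libraries agreed within sampling noise. One receptor gene and one marker gene enter the counts and are not reported here by name or value.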

Additional observations from a re-analysis of the deposited data

Results flagged for a closer look

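In groups of 4 libraries, a value whose gap to its nearest neighbour took up most of the group's range (Dixon's 95% limit) was looked for in 52 groups of receptor gene levels, and 3 were found, where chance alone gives about 1 in 20. All 3 were in anti-miR-501-3p libraries. Htr2c had 76.4 CPM in replicate 4 against 72.7 to 73.1 CPM in the other 3, further above the controls than they were. Chrm3 had 34.6 CPM in replicate 4 against 37.8 to 38.1 CPM. Chrm5 had 1.11 CPM in replicate 3 against 1.25 to 1.26 CPM. The calls of Htr2c held without that replicate, and Chrm3 and Chrm5 were not called.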

How the results depend on the processing

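The number of receptor genes called stayed within 1.5 times its value with DESeq2, other scalings, other filters on low counts, a surrogate variable, the replicate block and a fit of 2 groups alone. It moved with the GC and length correction, to 0 under anti-miR-409-5p and 2 under anti-miR-501-3p, with or without the replicate block. With single libraries left out it ranged from 1 to 7 and from 3 to 10; where a control is left out, the lone control is assumed to vary like the other groups. The surrounding genes called moved with the correction to 11 and 12, and to 11 and 14 with the replicate block, and with libraries left out from 12 to 37 and from 16 to 39. Between the anti-miRs, 1 of them was called with correction and replicate block together. Of the 36 tested receptor genes, 8 changed sign with the correction under anti-miR-409-5p, none of them called before it, and 7 under anti-miR-501-3p, of which Adra2c had been called. Those not called include Htr6 (anti-miR-501-3p, from -0.21 to 0.08) and Adra2c (anti-miR-409-5p, from -0.17 to 0.08). Among the values followed through every setting, signs changed under the correction for Adra2c (anti-miR-501-3p, 0.0248, and 0.0244 with the replicate block), Maoa (anti-miR-409-5p, -0.00394), Ric3 (anti-miR-409-5p, -0.0257 and -0.0272), Arrb2 (anti-miR-409-5p, 0.0253 and 0.00828) and Bche (anti-miR-501-3p, -0.0494 and -0.00985), and the cause was not tested. Beyond Chrm1 and Adra2c, the replicate block changed no call of a receptor gene. DESeq2 lost the calls of Adra2a and Chrm4 under anti-miR-409-5p and of Adra2c and Htr1b under anti-miR-501-3p. For genes below 1 CPM, the low counts limit what can be seen (19 and 20 for Htr1b in the controls).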
